A study of Mus musculus with 22 samples.

Results

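The 8 transcripts described here are the messenger RNAs that mitochondria make from their own chromosome and that the deposited table of mouse kidney cortex counts holds. The rule that picks them uses the gene symbol, which begins with mt-Nd, mt-Co, mt-Cytb or mt-Atp, and no measured value. They are 8 of 16556 genes in the table. Of the 13 protein-coding genes annotated on the mouse mitochondrial chromosome, the table gave mt-Nd1, mt-Nd2, mt-Nd3, mt-Nd4, mt-Nd5, mt-Nd6, mt-Co1 and mt-Cytb. The other 5 (mt-Co2, mt-Co3, mt-Atp6, mt-Atp8 and mt-Nd4l) were not analysed here. Crat encodes carnitine acetyltransferase, a mitochondrial enzyme that hands acetyl groups from coenzyme A to carnitine and back. The study deleted it in proximal tubular cells with a Cre recombinase under the Ggt promoter. All 22 libraries came from male C57BL/6J mice, 1 library per title. At 12 months, with the word LFD in the titles, there were 3 fl/fl (floxed) and 3 Pt-CrAT (Cre-deleted) animals. At 15 months, with chow in the titles, there were again 3 of each, and at 24 months, with chow, there were 5 of each. The labels do not say what LFD stands for, and this word changes together with age, so levels of the 12-month animals were not compared with those of older ones. The labels name no litter, batch or dissection day, so p-values measure the spread between these animals under whatever they shared. Single libraries carry their titles here, where those beginning with CrAT are labelled Pt-CrAT and those beginning with Wt are labelled fl/fl.

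The mitochondrial chromosome is transcribed by its own RNA polymerase, encoded by the nuclear gene Polrmt, together with the factors Tfam and Tfb2m, as long precursors that span most of the circle. The tRNAs that lie between the messages are cut out, which releases the messages, and the polymerase Mtpap adds short A tails. These messages encode core subunits of the respiratory chain: the Nd genes belong to complex I, which takes electrons from NADH, mt-Cytb to complex III, which passes them to cytochrome c, and mt-Co1 to complex IV, which gives them to oxygen. Most other subunits are encoded in the nucleus. Proximal tubular cells, the most abundant cells of the cortex, are packed with mitochondria and draw nearly all of their ATP from them.

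The kit is built to read a message near its 3′ end, and where the reads lay was not measured here. On GRCm38 (GENCODE M21) mt-Nd1 lies at chrM:2751-3707, mt-Nd2 at chrM:3914-4951, mt-Co1 at chrM:5328-6872, mt-Nd3 at chrM:9459-9806, mt-Nd4 at chrM:10167-11544, mt-Nd5 at chrM:11742-13565 and mt-Cytb at chrM:14145-15288, all on the plus strand. The gene mt-Nd6 lies on the minus strand at chrM:13552-14070, and its end overlaps that of mt-Nd5. Each gene is a single exon without introns. The last 60 bases of the annotated genes of the 5 messages on which the results turn are shown 5′ to 3′ in the sense of the message. The encoded stop codon is in capitals. Where each message itself ends was not measured. The annotated ends of mt-Nd5, mt-Nd2 and mt-Co1 carry a whole stop codon. That of mt-Nd2 overlaps the tRNA gene mt-Tw, which starts at chrM:4950. Once this tRNA is cut out, the message of mt-Nd2 may hold only part of the printed codon. The genes mt-Nd4 and mt-Cytb, the 2 with the highest levels per length, end in a lone T. Their last codon reads as a stop only once A residues are added.
mt-Nd5 (chrM:13506-13565): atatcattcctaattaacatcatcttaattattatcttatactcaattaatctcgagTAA
mt-Nd2 (chrM:4892-4951): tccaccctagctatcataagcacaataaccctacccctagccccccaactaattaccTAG
mt-Co1 (chrM:6813-6872): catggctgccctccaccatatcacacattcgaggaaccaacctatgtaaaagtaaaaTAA
mt-Nd4 (chrM:11485-11544): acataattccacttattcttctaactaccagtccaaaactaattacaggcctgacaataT
mt-Cytb (chrM:15229-15288): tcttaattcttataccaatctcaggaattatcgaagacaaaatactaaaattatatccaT
Within these stretches the share of A was 36.7% in mt-Nd5 and mt-Nd4, 31.7% in mt-Nd2, 38.3% in mt-Co1 and 41.7% in mt-Cytb. This kit primes on A tails and can also prime on A-rich stretches inside a message. The richest 20-base window of mt-Cytb held 13 A and lay 7 bases from its end. That of mt-Nd4 also held 13 A but lay 1107 bases from its end, and mt-Nd6, with 22.2% A over its whole length, held no window above 8.

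Total counts ran from 12175804 to 17447367 per library, with 1 library, CrAT12MLFD345, at 53157575. A marker of kidney cortex was present in every group: the proximal tubule phosphate transporter Slc34a1 stood between 4586 ± 1073 CPM (SD, n = 5, Pt-CrAT at 24 months) and 9561 ± 944 CPM (SD, n = 3, Pt-CrAT at 12 months) as group means. CPM here is the count scaled to a common library total after edgeR's TMM correction, which allows for a few very abundant genes. Crat itself averaged 78.9 ± 22.5 CPM (fl/fl) and 62.5 ± 19.4 CPM (Pt-CrAT) at 12 months (n = 3 each), and 74.7 ± 24.4 against 36.2 ± 4.41 CPM at 24 months (n = 5 each). At 15 months it went against the labels, with 45.3 ± 13.3 CPM in fl/fl and 69.15 ± 5.275 CPM in the libraries labelled Pt-CrAT (n = 3 each). The sources used here give no deleted exons, so a 3′ read may lie outside the deleted part and check little. Every comparison that uses the 15-month libraries, the change from 15 to 24 months included, rests on labels that Crat goes against. Libraries CrAT24Mchow123 and CrAT24Mchow136 stand apart at 24 months, with summed levels of 20 proximal tubule genes of 14075 and 13365 CPM against 16937 to 17823 CPM in the other 3 Pt-CrAT animals. The androgen-regulated proximal tubule gene Kap was at 2853 CPM in CrAT24Mchow136, the lowest of its group, against 29290 ± 3327 CPM (n = 5) in fl/fl of that age. Results that rest on these libraries are given with and without them.

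The 8 messages together took 3.73% to 6.38% of all counts of a library. The lowest share was 3.73% in Wt24Mchow154 (Wilson 95% interval 3.72% to 3.74%, counting error only) and the highest was 6.38% in Wt12MLFD368 (6.37% to 6.39%). Group means were 5.51% ± 0.934 in fl/fl and 4.91% ± 0.419 in Pt-CrAT at 12 months (SD, n = 3 each), 4.52% ± 0.244 and 4.395% ± 0.271 at 15 months (n = 3 each), and 4.81% ± 0.800 and 4.49% ± 0.352 at 24 months (n = 5 each). The ranges of the 2 genotypes overlapped at every age. These reads mostly came from few genes: mt-Nd4 gave 50.8% of the 8 genes' counts over the 22 libraries, mt-Cytb 24.7%, mt-Nd1 13.4% and mt-Nd2 7.53%. In bulk RNA, fewer mitochondria-rich cells and less of a message per cell cannot be told apart.

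The order of the levels was nearly the same in every kidney. Per kilobase of gene, median levels over 22 libraries were 15544 CPM for mt-Nd4, 10096 for mt-Cytb, 6888 for mt-Nd1, 3522 for mt-Nd2, 561 for mt-Co1, 468 for mt-Nd5, 15.9 for mt-Nd6 and 4.13 for mt-Nd3. On this scale mt-Nd4 lay above mt-Cytb in 21 of 22 libraries and mt-Cytb above mt-Nd1 in 21. The messages mt-Nd1, mt-Nd2 and mt-Co1 followed each other in that order in all 22. The neighbours mt-Co1 and mt-Nd5 were the least separated, with mt-Co1 the higher in 17 of 22 libraries, and their ranges per kilobase (440 to 668 and 269 to 713 CPM) overlapped. The message mt-Nd6, from the other strand, lay below mt-Nd5 in all 22. This kit primes on A tails, and the tails of the messages were not measured. The order of counts, that of mt-Nd6 included, need not be the order of amounts. With a kit that reads near the 3′ end, counts need not grow with length, so this scale may set longer messages too low. Without division the medians kept the same order, with mt-Co1 at 867 and mt-Nd5 at 853 CPM. At 12 months mt-Nd5 then had the higher mean (1031 against 810 CPM in fl/fl, 1045 against 837 CPM in Pt-CrAT). The per-kilobase scale is used for this order alone, and all other levels are CPM without division by length.

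**Figure D1:**
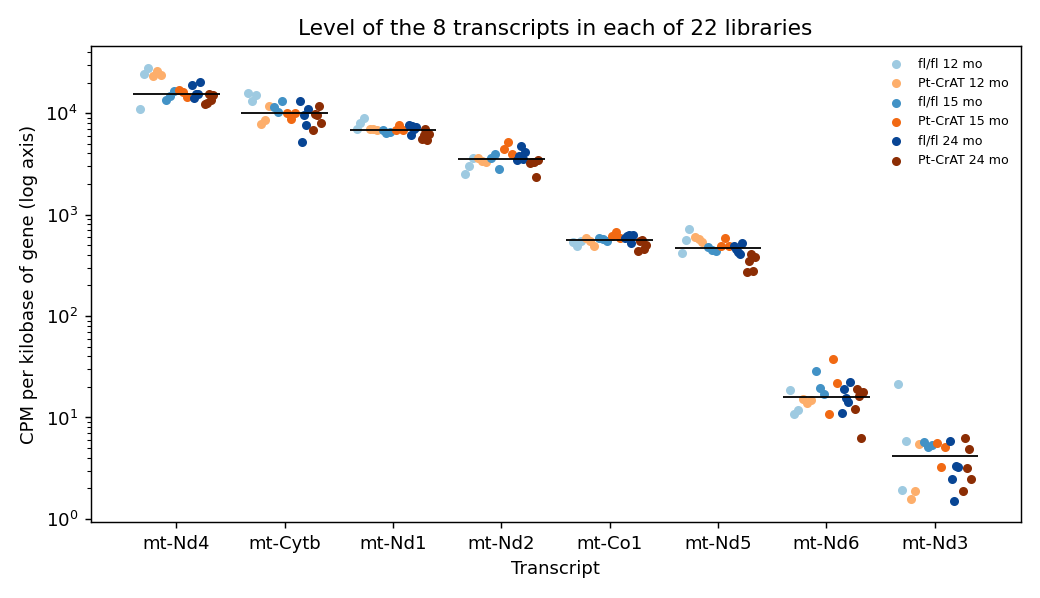
Level of each message per kilobase of gene in each of 22 libraries (points, coloured by genotype label and age; log axis), with the median over all libraries as a line. The 6 upper messages lie at 269 CPM per kilobase or above in every library, and mt-Nd6 and mt-Nd3 lie at 37.5 or below.

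Some of these messages have near-perfect copies in the nuclear genome, and how the authors counted reads that match more than 1 place is not given in the sources used here. Every 50-base window of each message was looked up in all annotated transcripts of other chromosomes (GENCODE M21). No window of mt-Nd1, mt-Nd6 or mt-Cytb had an exact match there. Whether the reads came from the last 300 bases of the annotated genes was not measured. There, 0% of windows matched for mt-Nd4 and 1.99% for mt-Nd5, against 31.9% for mt-Nd2, 98.8% for mt-Nd3 and 100% for mt-Co1. Over their whole length the shares were 62.2% for mt-Nd4, 7.61% for mt-Nd5, 8.19% for mt-Nd2, 98.0% for mt-Nd3 and 51.1% for mt-Co1. The levels of mt-Nd3, mt-Co1 and, in part, mt-Nd2 are therefore uncertain, and so is that of mt-Nd4 as far as its reads came from inside the message. The strand setting of the counting is not stated either, so reads of mt-Nd6 and of mt-Nd5 cannot be told apart where these genes overlap. The copy Gm13339 of mt-Nd2 on chromosome 2 was listed at a median of 0.241 CPM, and the copy Gm13340 of mt-Co1 at 0.882 CPM. For mt-Nd3, only 6 to 93 counts were found per library.

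At 12 months, no message of the 8 passed the test between Pt-CrAT and fl/fl, while 16.4% of all genes did (edgeR quasi-likelihood test, adjusted p under 0.05, either direction). At an unadjusted p under 0.05 there were 2 of 8, and with DESeq2 also 2 of 8, in both cases mt-Cytb and mt-Nd3. The heme-bearing complex III subunit mt-Cytb was at 17880, 15160 and 17348 CPM in the 3 fl/fl animals and at 8870, 9804 and 13502 CPM in the 3 Pt-CrAT animals. Every Pt-CrAT value lay below every fl/fl value, with group means of 16796 ± 1441 and 10725 ± 2450 CPM. How many of all genes separate in this way was not counted, here or in later comparisons, so a lack of overlap is description only. The log2 fold change of mt-Cytb was -0.65 (SE 0.25, edgeR adjusted p = 0.0733). With DESeq2 it was -0.64 (adjusted p = 0.0384), and over the alternatives run the adjusted p ranged from 0.0338, without CrAT12MLFD345 (log2 fold change -0.84), to 0.289. The count of genes that passed at this age was 408 without Wt12MLFD326, 391 without CrAT12MLFD337, 53 without CrAT12MLFD328 and 1 with only the compared groups in the model (edgeR).

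The complex I message mt-Nd4, in contrast, was at 15280, 33450 and 38723 CPM in fl/fl and 31881, 35982 and 33075 CPM in Pt-CrAT at 12 months. The low fl/fl value belongs to Wt12MLFD326, and the Pt-CrAT values lie inside the fl/fl range. Its log2 fold change was 0.21 (SE 0.23, edgeR adjusted p = 0.564), and without Wt12MLFD326 it was -0.10. The ratio of mt-Nd4 to mt-Cytb, which does not depend on library scaling, was 0.855, 2.21 and 2.23 in fl/fl animals, while the Pt-CrAT animals had 3.59, 3.67 and 2.45, again without overlap. At the later ages the ranges of the genotype labels overlapped, with means of 1.54 ± 0.158 (fl/fl) and 1.99 ± 0.272 (Pt-CrAT) at 15 months (n = 3 each) and 2.32 ± 0.586 and 1.86 ± 0.387 at 24 months (n = 5 each). In fl/fl all 5 ratios of 24 months lay above all 3 of 15 months. At 12 months the ratio of mt-Cytb to mt-Nd1 overlapped between the genotypes, with means of 2.24 in fl/fl and 1.62 in Pt-CrAT. That of mt-Nd4 to mt-Nd1 did not overlap (means 3.74 and 5.07), so the ratio of mt-Nd4 to mt-Cytb does not describe mt-Cytb alone. The fl/fl library Wt12MLFD326 was also high in mt-Nd3, at 7.44 CPM (93 counts), where the other fl/fl animals were at 0.668 and 2.04 CPM and Pt-CrAT at 0.548, 0.657 and 1.92 CPM. The fold change of mt-Nd3 was -1.49 (SE 0.60, edgeR adjusted p = 0.0862), and without Wt12MLFD326 it was -0.19 (adjusted p = 0.886). It passed without Wt12MLFD327 (-1.97, edgeR adjusted p = 0.0178) and without CrAT12MLFD345 (-2.43, adjusted p = 0.0270). The log2 fold changes of the other messages were -0.20 for mt-Nd1, 0.17 for mt-Nd2, 0.046 for mt-Co1, 0.019 for mt-Nd5 and 0.084 for mt-Nd6, none past the threshold. With library totals as the scale, a setting added after the data were seen, the median of all genes moved from 0.0016 to -0.12, mt-Cytb came to -0.77 (edgeR adjusted p = 0.0467), and mt-Co1, mt-Nd5 and mt-Nd6 turned to negative values.

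**Figure D2:**
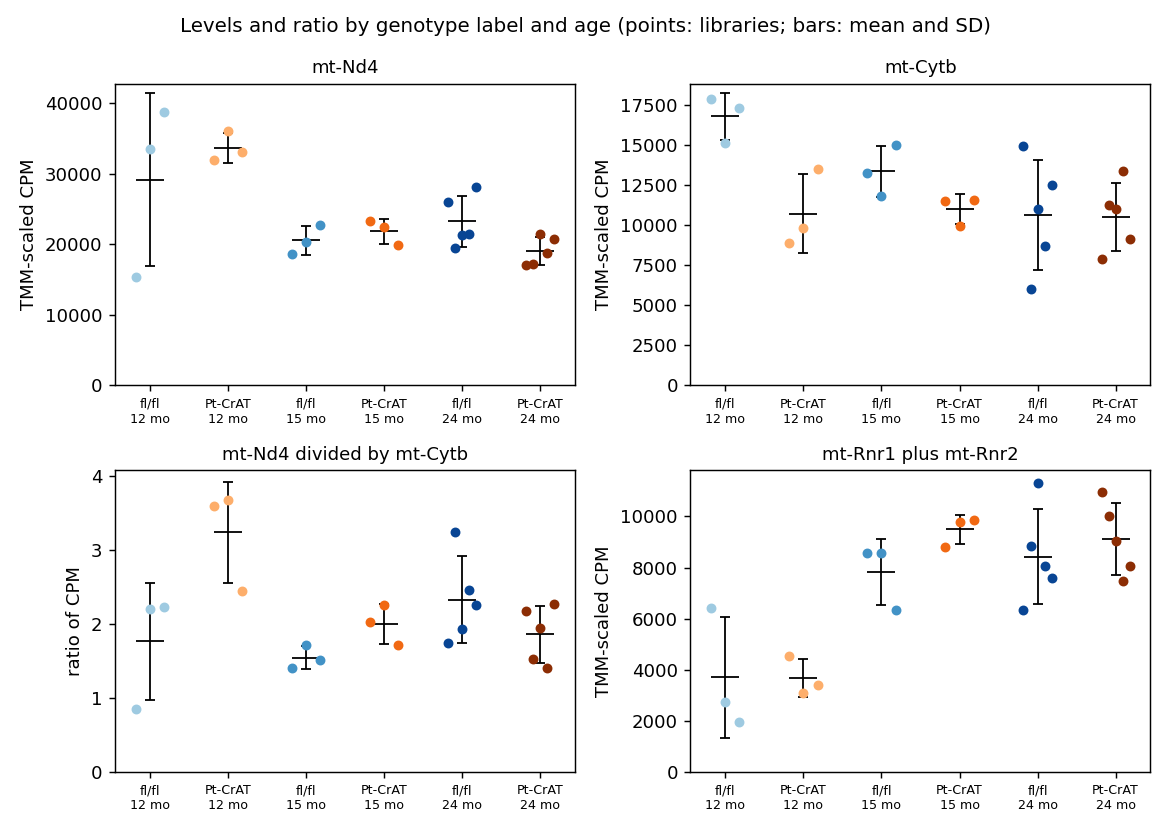
Levels of mt-Nd4, mt-Cytb and the summed rRNAs mt-Rnr1 and mt-Rnr2 in TMM-scaled CPM, and the ratio of mt-Nd4 to mt-Cytb, by genotype label and age (points, libraries; bars, mean and SD; n = 3, 3, 3, 3, 5 and 5). In fl/fl at 12 months 1 library has the lowest mt-Nd4 (15280 CPM) and the lowest ratio (0.855) of all 22, and the Pt-CrAT values of mt-Cytb at that age lie below all fl/fl values.

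At 15 months 0% of the genes tested passed between the genotype labels (0 of 15064, edgeR quasi-likelihood test, 1249 genes at an unadjusted p under 0.05), and so none of the 8 messages (1 at an unadjusted p under 0.05, mt-Nd2, and 0 of 8 with DESeq2). The level of mt-Nd2 was 3767, 4142 and 2923 CPM in fl/fl and 4590, 5448 and 4101 CPM in the libraries labelled Pt-CrAT. The lowest of the latter lies within the fl/fl range, and the fold change was 0.38 (SE 0.18, edgeR adjusted p = 0.581). For mt-Cytb, values were 13270, 11838 and 14998 CPM against 11506, 9941 and 11594 CPM, with no overlap and a log2 fold change of -0.28 (SE 0.25, edgeR adjusted p = 0.675). For mt-Nd5 all 3 libraries labelled Pt-CrAT were above all 3 fl/fl (0.21, SE 0.18, edgeR adjusted p = 0.668). The messages mt-Nd1, mt-Co1, mt-Nd4 and mt-Nd6 lay between 0.089 and 0.11 on the log2 scale, and mt-Nd3 at -0.21.

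At 24 months again 0% of genes passed (edgeR quasi-likelihood test, 1409 genes at an unadjusted p under 0.05, 15 genes with DESeq2), and none of the 8 messages, with 4 of them at an unadjusted p under 0.05 and 0 with DESeq2. The fold changes of 7 messages were below 0, with a median of -0.25 over the 8 against 0.018 over all genes tested. The complex I message mt-Nd5 was at 897, 830, 787, 741 and 956 CPM in fl/fl and 490, 642, 741, 510 and 692 CPM in Pt-CrAT. The highest Pt-CrAT value, in CrAT24Mchow135, just passed the lowest fl/fl value, and the other 4 lay below all fl/fl animals. Its log2 fold change was -0.45 (SE 0.14, edgeR adjusted p = 0.461). Next came mt-Nd2 at -0.33 (SE 0.14), mt-Nd4 at -0.29 (SE 0.18), mt-Co1 at -0.25 (SE 0.10), mt-Nd1 at -0.24 (SE 0.11) and mt-Nd6 at -0.22 (SE 0.29). The message mt-Cytb stood at -0.014 (SE 0.19) with a wide fl/fl range, 6006 to 14921 CPM around a median of 11001, that held all 5 Pt-CrAT values (7853 to 13396 CPM).

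Without CrAT24Mchow123 and CrAT24Mchow136, the 24-month fold change was -0.29 for mt-Nd5, -0.24 for mt-Nd2 and -0.16 for mt-Co1, and mt-Nd6 came to 0.078. With library totals as the scale the median of all genes moved from 0.018 to 0.14 and that of the 8 messages from -0.25 to -0.13, with 6 of them below 0. TMM factors ran from 1.06 to 1.20 in Pt-CrAT and from 1.01 to 1.05 in fl/fl at this age.

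**Figure D3:**
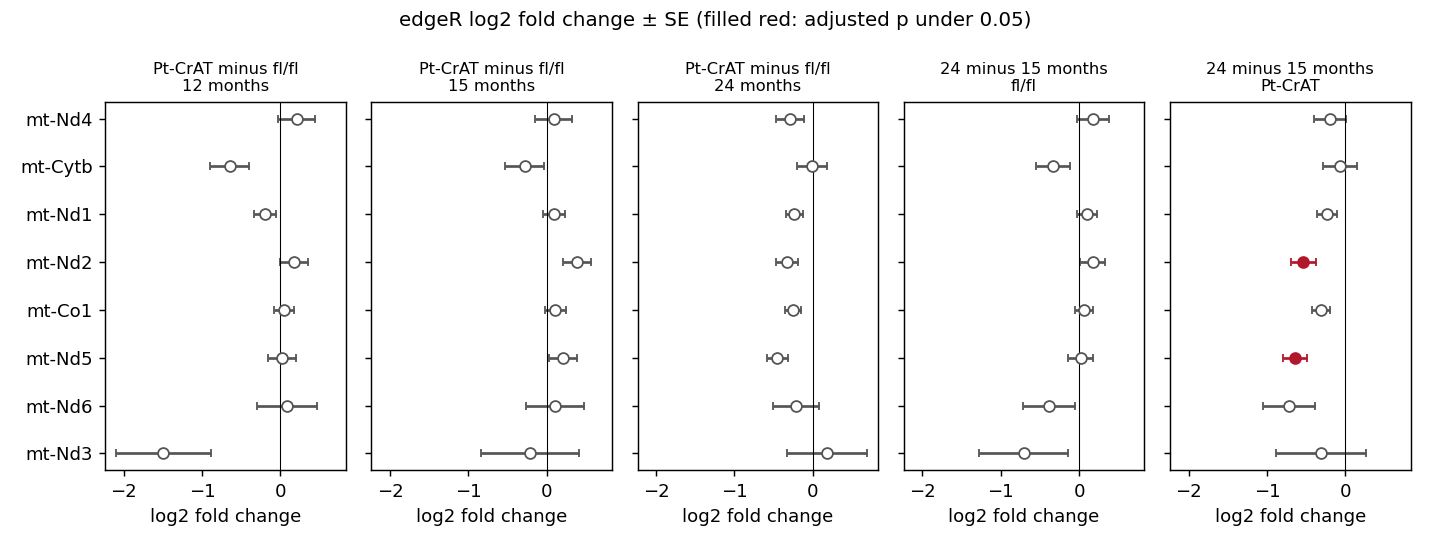
Log2 fold change and its standard error from edgeR for each message in 5 comparisons (columns), with filled red points for an adjusted p under 0.05. Only mt-Nd2 and mt-Nd5 pass, both in the change from 15 to 24 months among libraries labelled Pt-CrAT, where all 8 points lie below 0 under TMM scaling.

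Between 15 and 24 months, 2 complex I messages fell among the libraries labelled Pt-CrAT: mt-Nd5, a membrane-arm subunit that takes part in proton pumping, and mt-Nd2, another membrane-arm subunit. These are 2 of 8, where 11.3% of all genes passed in either direction and 5.71% were lower (edgeR quasi-likelihood test). The level of mt-Nd5 went from 894, 1078 and 901 CPM to 490, 642, 741, 510 and 692 CPM. Every animal of 24 months lay below every animal of 15 months, and the log2 fold change was -0.64 (SE 0.16, edgeR adjusted p = 0.012). The level of mt-Nd2 went from 4590, 5448 and 4101 CPM to 3367, 3390, 3429, 2453 and 3618 CPM, with no overlap either and a log2 fold change of -0.54 (SE 0.16, edgeR adjusted p = 0.0312).

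The catalytic complex IV subunit mt-Co1 was also lower in all 5 older animals, at 680, 844, 877, 702 and 774 CPM against 940, 1031 and 901 CPM, but did not pass with edgeR (-0.30, SE 0.11, adjusted p = 0.0867). With DESeq2 it was called too (adjusted p = 0.0318), which made 3 of 8. The remaining values were -0.71 for mt-Nd6 (SE 0.33), -0.31 for mt-Nd3 (SE 0.57), -0.23 for mt-Nd1 (SE 0.13), -0.20 for mt-Nd4 (SE 0.21) and -0.065 for mt-Cytb (SE 0.22), none past the threshold. Without CrAT15Mchow183, mt-Nd6 passed at -1.06 (edgeR adjusted p = 0.0355). The message with most counts, mt-Nd4, overlapped between the ages: it was at 23241, 22379 and 19814 CPM at 15 months and at 17065, 17152, 21439, 18714 and 20656 CPM at 24 months. Within the mitochondrial messages, the ratio of mt-Nd5 to mt-Nd1, which needs no library scaling, was 0.138, 0.149 and 0.137 at 15 months and 0.0923 to 0.117 at 24 months, without overlap. The ratio of mt-Nd2 to mt-Nd1 averaged 0.696 at 15 months and 0.565 at 24 months, and its ranges overlapped. For that ratio 4 of the 5 older animals lay below all younger ones.

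Both calls were lost when some libraries were left out, while the fold changes stayed below 0, and on another scale the call for mt-Nd2 was lost. Without CrAT15Mchow185, the highest of the younger animals for mt-Nd5, mt-Nd2 and mt-Co1, the fold changes were -0.54 for mt-Nd5 (edgeR adjusted p = 0.0984) and -0.41 for mt-Nd2 (adjusted p = 0.201). Without CrAT24Mchow123 and CrAT24Mchow136 they were -0.48 (edgeR adjusted p = 0.0975) and -0.44 (adjusted p = 0.136). The call for mt-Nd2 was also lost without CrAT15Mchow183 (-0.56, adjusted p = 0.0544), CrAT15Mchow204 (-0.61, adjusted p = 0.0633) or CrAT24Mchow136 (-0.45, adjusted p = 0.0699), and with only the compared groups in the edgeR model (-0.53, adjusted p = 0.0546). With library totals as the scale, the median of all genes moved from 0.045 to 0.29 and that of the 8 messages from -0.31 to -0.066. On that scale mt-Nd5 was at -0.40 (edgeR adjusted p = 0.0379), mt-Nd2 at -0.30 (adjusted p = 0.137) and mt-Co1 at -0.064, while mt-Nd1, mt-Nd4 and mt-Cytb came to 0.011, 0.039 and 0.18. The TMM factors were 0.936 to 0.979 at 15 months and 1.06 to 1.20 at 24 months, and as a share of all counts the 8 messages were 4.395% ± 0.271 (n = 3) and 4.49% ± 0.352 (n = 5).

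**Figure D4:**
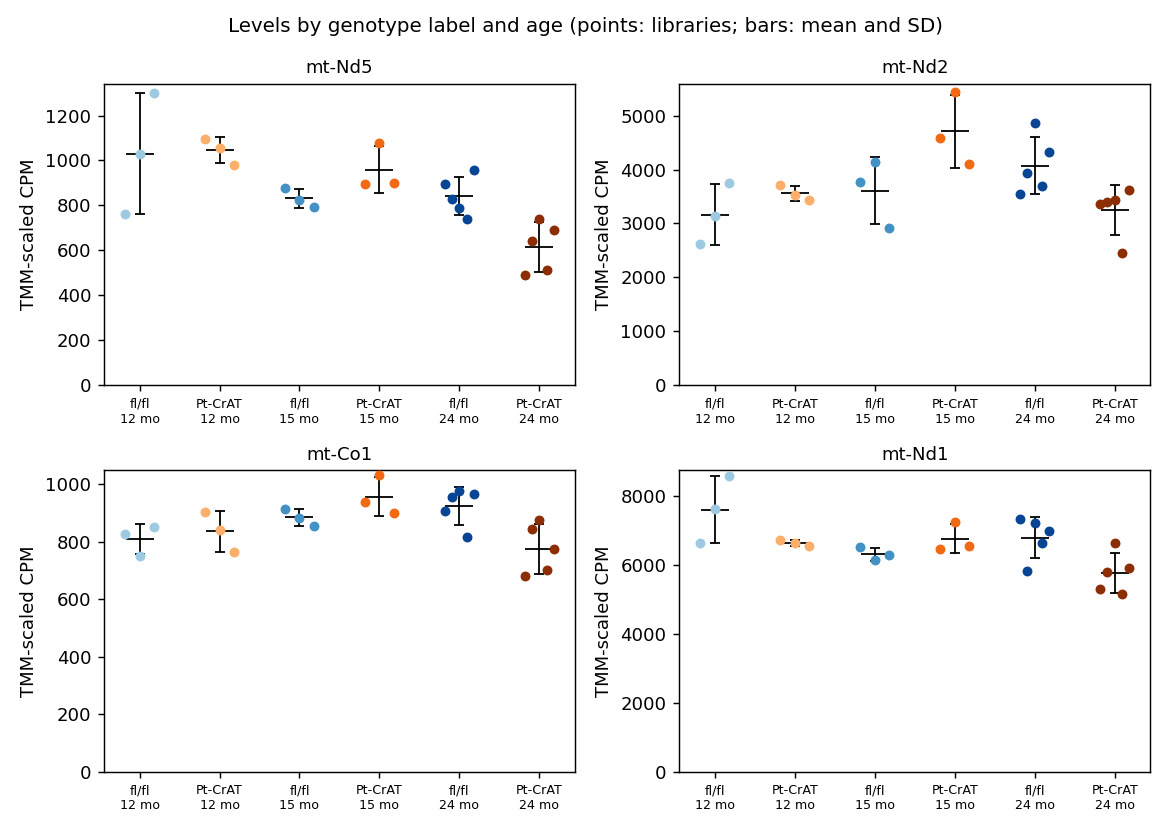
Levels of mt-Nd5, mt-Nd2, mt-Co1 and mt-Nd1 in TMM-scaled CPM by genotype label and age (points, libraries; bars, mean and SD; n = 3, 3, 3, 3, 5 and 5). For mt-Nd5, mt-Nd2 and mt-Co1 all 5 Pt-CrAT animals of 24 months lie below all 3 of 15 months. How many of all genes separate in this way was not counted.

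In fl/fl animals none of the 8 messages passed between 15 and 24 months, where 1.3% of all genes did (edgeR quasi-likelihood test; 0 of 8 at an unadjusted p under 0.05 and 0 of 8 with DESeq2). The level of mt-Nd5 was 876, 824 and 792 CPM at 15 months and 741 to 956 CPM at 24 months, and the log2 fold change was 0.020 (SE 0.16). That of mt-Nd2 was 3767, 4142 and 2923 CPM and then 3549 to 4870 CPM (0.17, SE 0.16). The values of mt-Cytb (-0.33, SE 0.22), mt-Nd6 (-0.39, SE 0.33) and mt-Nd3 (-0.71, SE 0.57) were below 0, and those of mt-Nd1, mt-Co1 and mt-Nd4 lay between 0.063 and 0.18. The difference between the genotype labels in this change passed for 0% of genes (edgeR quasi-likelihood test, 2255 genes at an unadjusted p under 0.05, 23 genes with DESeq2) and for none of the 8 messages (3 at an unadjusted p under 0.05, 0 with DESeq2). It was -0.71 (SE 0.23, edgeR adjusted p = 0.290) for mt-Nd2 and -0.66 (SE 0.22, adjusted p = 0.290) for mt-Nd5, so a difference between the genotype labels in this change did not pass the test.

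Averaged over the 3 settings, the genotype difference passed for 0.0266% of genes (edgeR quasi-likelihood test, 3091 at an unadjusted p under 0.05) and for none of the 8 messages (1 at an unadjusted p under 0.05, 0 with DESeq2). The mean difference of mt-Cytb was -0.31 (SE 0.13, edgeR adjusted p = 0.204), that of mt-Nd3 -0.51 (SE 0.34), and the other 6 lay between -0.11 and 0.076. A test of whether the genotype difference varied among the 3 settings, in which age and the diet word change together and cannot be told apart, passed for 5.07% of genes (edgeR, 2 degrees of freedom) and for none of the 8, with 2 at an unadjusted p under 0.05, mt-Nd2 (edgeR adjusted p = 0.0832) and mt-Nd5 (adjusted p = 0.0981). DESeq2 called those 2 messages, with adjusted p = 0.026 for mt-Nd2 and 0.0445 for mt-Nd5. Without Wt12MLFD368 edgeR called both too (adjusted p = 0.0474 for mt-Nd2 and 0.0419 for mt-Nd5).

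The other transcripts of the mitochondrial chromosome in the table, 2 rRNAs and 14 tRNAs, showed other patterns. The rRNAs mt-Rnr1 and mt-Rnr2, which form the mitochondrial ribosome and lie at the start of the same strand, differed by -0.19 (SE 0.24) and -0.013 (SE 0.28) between 15 and 24 months in Pt-CrAT. Their summed level was 8822, 9784 and 9867 CPM at 15 months and 7468 to 10948 CPM at 24 months, with overlapping ranges. Of 12 tRNA genes tested, 8 fell in that comparison, where 5.71% of all genes did (edgeR). These 8 tRNAs had log2 fold changes between -2.60 for mt-Tf and -1.12 for mt-Tl1. Several of them had few counts per library, 0 to 46 for mt-Tf, 2 to 47 for mt-Ts2 and 1 to 27 for mt-Tr, against 102 to 593 for mt-Tl1. The kit primes on A tails, and whether these reads came from mature tRNAs was not measured. The summed level of the 14 tRNA genes was 259 CPM in CrAT15Mchow183 but 661 and 574 CPM in CrAT15Mchow185 and CrAT15Mchow204, and 109, 301, 249.7, 82.2 and 282 CPM at 24 months, so that CrAT15Mchow183 lay within the older range. Without CrAT15Mchow185 0 of the 12 passed, without CrAT15Mchow204 1 did, without CrAT24Mchow123 and CrAT24Mchow136 1 did, and with library totals as the scale 5 did (edgeR), while DESeq2 on all libraries called 9. CrAT15Mchow185 and CrAT15Mchow204 also held the higher mt-Nd6 levels of their group, 19.5 and 11.3 CPM against 5.57 CPM. In fl/fl, 1 of 12 tRNAs passed, where 1.3% of all genes did (edgeR). It was mt-Tr at -2.76 (SE 0.59, edgeR adjusted p = 0.0227), with means of only 1.24 CPM at 15 months and 0.178 CPM at 24 months.

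**Figure D5:**
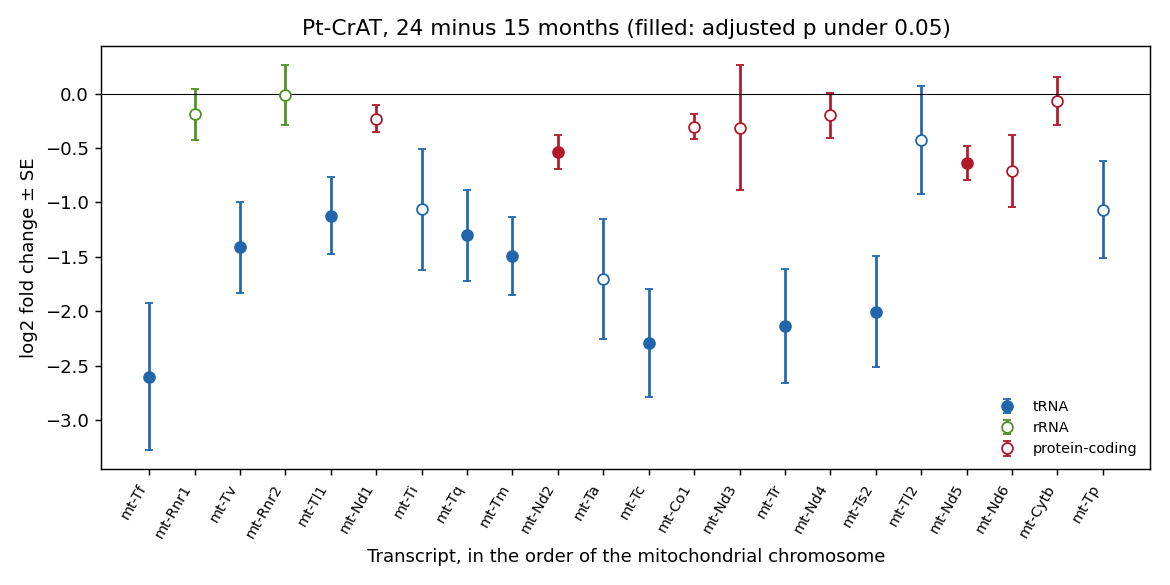
Log2 fold change and its standard error from edgeR between 15 and 24 months in Pt-CrAT for the 22 tested transcripts of the mitochondrial chromosome in their order along it (filled points, adjusted p under 0.05; red, messages; green, rRNAs; blue, tRNAs). The 8 called tRNAs lie between -2.60 and -1.12, the 2 called messages at -0.54 and -0.64, and the rRNAs at -0.19 and -0.013.

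The nuclear genes of the respiratory chain were set beside these messages from lists by complex. Between 15 and 24 months in Pt-CrAT, 7 of 36 complex I genes fell and none rose (median -0.20). Among them were the membrane subunits Ndufc2 (-0.56, SE 0.14) and Ndufb4 (-0.49, SE 0.14) and the matrix-arm subunits Ndufs1 (-0.365, SE 0.11) and Ndufs3 (-0.62, SE 0.19). In complex III 2 of 9 fell, the core subunit Uqcrc1 (-0.47, SE 0.12) and Uqcrq (-0.37, SE 0.12), in complex IV 1 of 13, Cox7a1 (-0.45, SE 0.14), and in ATP synthase 2 of 16, Atp5e (-0.46, SE 0.12) and Atp5g1 (-0.49, SE 0.13). In complex II 0 of 4 passed with edgeR, where DESeq2 called 1. No gene of these lists rose. Of all genes tested, 5.71% fell and 11.3% passed in either direction (edgeR), and their median was 0.045. Nothing is read from lists near that share, such as complex IV and ATP synthase. Without CrAT15Mchow185, without CrAT15Mchow204, without CrAT24Mchow123 and CrAT24Mchow136, or with library totals as the scale, 0 of the listed respiratory chain genes passed with edgeR.

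Of all genes tested between 15 and 24 months in Pt-CrAT, 5.71% fell (edgeR). Of 31 nuclear genes of mitochondrial transcription and RNA handling that were tested, 5 fell and none rose in the same comparison. These included Fastk, a regulator of mitochondrial RNA (-0.59, SE 0.15), the nuclease Rexo2 (-0.49, SE 0.14), Elac2, which cuts tRNA ends from precursors (-0.52, SE 0.15), and Ptcd1 (-0.42, SE 0.13). The RNA polymerase Polrmt stood at -0.45 (SE 0.17, edgeR adjusted p = 0.0903) and Tfam, which packs mitochondrial DNA, at 0.079 (SE 0.22). Lrpprc and Slirp, the partners that stabilise the messages, were at -0.38 (SE 0.23) and 0.12 (SE 0.24). Mtpap, which adds the A tails, was at -0.31 (SE 0.21), Tfb2m at 0.47 (SE 0.44), and the termination factor family members Mterf2, Mterf3 and Mterf4 at -0.18, 0.82 and -0.29. Of these 9 genes 0 passed with edgeR (2 at an unadjusted p under 0.05, 0 with DESeq2). Of 20 genes of mitochondrial DNA maintenance 2 fell, the nuclease Endog (-0.45, SE 0.14) and the topoisomerase Top1mt (-0.396, SE 0.13), a count near the share of all genes. Neither list kept a fallen gene without CrAT15Mchow185, without CrAT24Mchow123 and CrAT24Mchow136, or with library totals as the scale, where 1 gene of each list rose.

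Markers of cell types moved in the same comparison. Of 20 genes of the S1 and S2 proximal tubule 9 fell and none rose (median -0.54), led by the glucose transporter Slc5a2 at -1.24, and the summed level of the 20 genes was 22947 to 25315 CPM at 15 months and 13365 to 17823 CPM at 24 months. The median over all genes tested was 0.045, and 11.3% of them passed in either direction (5.71% fell). The 2 lowest libraries of that sum, CrAT24Mchow136 at 13365 CPM and CrAT24Mchow123 at 14075 CPM, also held the 2 lowest mt-Nd5 levels, 510 and 490 CPM. Of 13 macrophage markers 5 rose, with sums of 404 to 539 and 481 to 865 CPM, and of 7 adipocyte markers 1 fell. Of 10 S3 proximal tubule genes 3 fell, with sums of 6073 to 6626 and 2533 to 5464 CPM, and of 9 distal convoluted tubule markers 2 fell. Of 9 thick ascending limb markers 3 rose, of 11 collecting duct markers 3 rose, and of 9 endothelial markers 1 rose, with all 9 above 0. Of 8 podocyte and 6 erythrocyte markers 0 passed. The endothelial and adipocyte counts lie near the share of all genes, and nothing is read from them. Without CrAT15Mchow185, 4 of the S1 and S2 genes fell and 1 macrophage marker rose, and without CrAT24Mchow123 and CrAT24Mchow136 these were 4 and 3. In fl/fl the sum of the S1 and S2 genes was also lower at 24 months (20992 to 23381 and then 16954 to 20290 CPM), where no message passed. The part of cell composition in the falls of mt-Nd5 and mt-Nd2 was not tested.

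At 12 months, nuclear subunits differed in both directions with edgeR, in a comparison where 16.4% of all genes passed. Nothing is read from lists whose share lies near that background, such as complex IV and transcription and RNA handling. In complex I 9 of 36 genes rose in Pt-CrAT, among them Ndufb7 (0.86, SE 0.16) and Ndufs8 (0.80, SE 0.17), and 4 fell, among them Ndufc2 (-0.68, SE 0.16) and Ndufv2 (-0.51, SE 0.13). In complex III 3 of 9 rose (Uqcr10, Uqcr11 and Uqcrc1, by 0.65, 0.58 and 0.41), in complex IV 1 of 13 fell (Cox5a, -0.49), and in ATP synthase 3 of 16 rose and 1 fell. Of the 31 genes of transcription and RNA handling 3 rose and 4 fell, among the latter Tfam (-0.76, SE 0.25, edgeR adjusted p = 0.0389). Polrmt was at 0.46 (SE 0.19, edgeR adjusted p = 0.0946), Tfb2m at -1.43 (SE 0.56), Lrpprc at 0.30 (SE 0.26), Slirp at -0.17 (SE 0.27) and Mtpap at -0.48 (SE 0.24). Counts of cell type markers stand against the same 16.4%. Of 20 S1 and S2 proximal tubule genes 5 fell, of 9 thick ascending limb genes 3 fell and of 11 collecting duct genes 2 fell. Of 9 distal convoluted tubule and 9 endothelial genes 1 each fell, and of 8 podocyte, 6 erythrocyte and 13 macrophage genes 0 passed. Nothing is read from counts near that share, such as those of collecting duct and endothelium. Of 10 S3 proximal tubule genes 2 rose, a count also near that share. Their sums were 5371 to 6901 CPM in fl/fl against 8434 to 10303 CPM for Pt-CrAT. Most of the 10 went the other way, with 4 above 0, 6 below and a median log2 fold change of -0.30, so the sum does not describe the list. Of 7 adipocyte markers 6 rose in Pt-CrAT at this age, with levels summed over the 8 listed markers of 134 to 276 CPM in fl/fl against 353 to 884 CPM for Pt-CrAT, and the part of other cells in these differences was not tested. The counts at 12 months rest on single libraries: without Wt12MLFD326 2 complex I genes rose and 1 fell, without CrAT12MLFD337 2 rose and 0 fell, and without CrAT12MLFD328, or with only the compared groups in the edgeR model, 0 passed. At 15 and 24 months 0 of the 15064 genes tested passed between the genotype labels with edgeR, and so none of these.

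Across the 22 kidneys the messages did not vary as 1 block. The correlation of log2 CPM, a description over libraries that share their scaling, was highest for mt-Nd1 with mt-Nd5 (Pearson r = 0.83, and 0.80 after subtracting group means) and for mt-Nd4 with mt-Nd5 (0.77 and 0.72). That of mt-Nd2 with mt-Co1 was 0.74 (0.52 after subtracting group means). In contrast, mt-Cytb ran against mt-Nd2 (-0.37 and -0.32) and was close to unrelated to mt-Nd5 after subtracting group means (0.050). Among 9935 genes of other chromosomes with a mean of at least 5 CPM, those whose log2 level was most like the summed level of the 8 messages over the 22 libraries were Eif4e (r = 0.93), which encodes the cap-binding translation factor, Rbpms2 (0.91), Snapc5 (0.90), Tmem176b (0.90) and the non-coding AI314278 (0.90). The most opposite were Tnrc18 (-0.92), Plekha7 (-0.92), Ptpn13 (-0.91), Fnbp1l (-0.90) and Taok1 (-0.90). The median r of all 9935 genes was 0.106. Group means were not subtracted for these r, so they also carry differences between the groups, in which age and the diet word change together. All points share the scaling of their library.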

How the data were processed

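Kidney cortex RNA was extracted with TRIzol and sequenced from its 3′ end with a Lexogen QuantSeq FWD kit, per the labels' protocols. The genome build GRCm38, R 3.4.3 and DESeq2 1.18.1 are named in the submitters' processing notes. The aligner, the counter, its strand setting and the handling of reads with several matches (none named in the sources used here) are unknown. The authors deposited raw counts per gene for 22 libraries, which every test uses, and a normalized signal, each count divided by a DESeq2 size factor, which gave the gene names. Identifiers were matched to GENCODE M21 on GRCm38 (16514 of 16556).

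The tests were made with edgeR 4.0.16 in R 4.3.3: TMM scaling, filterByExpr (15064 genes, all 8 members), and the robust quasi-likelihood F test over 6 groups in 1 model (16 residual degrees of freedom, biological coefficient of variation 20.5%), with Benjamini-Hochberg adjustment over all genes tested and a threshold of 0.05. DESeq2 1.42.0, other scalings, no filter and left-out libraries were alternatives, and the script was tested on simulated counts. Levels are TMM-scaled CPM. The genes named beside the 8 messages are, per list, up to 4 with the smallest p in a comparison, with Polrmt, Tfam, Tfb2m, Lrpprc, Slirp, Mtpap and the Mterf family always added, and the 5 most like and 5 most unlike genes by correlation. Members and lists were chosen with earlier results of these data known. Groups have no replicate numbers in common, so the libraries were treated as unpaired. Sequences are from GENCODE transcripts.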

Additional observations from a re-analysis of the deposited data

Results flagged for a closer look

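The level of mt-Nd2 in CrAT24Mchow136 was 2453 CPM, far below the other 4 Pt-CrAT animals of 24 months, which lay between 3367 and 3618 CPM. The gap to the nearest of them was 0.785 of the range of the group, above the limit of 0.71 for 5 values. It was the only such value among 28 sets of 5 values that were examined. The sets are messages, sums and ratios in the same 24-month animals, so they are not independent. Chance gives about 1 flag in 20 sets, so 1 among 28 is not unusual. Without CrAT24Mchow136 the log2 fold change of mt-Nd2 from 15 to 24 months in Pt-CrAT was -0.45 (edgeR adjusted p = 0.0699).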

How the results depend on the processing

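Of 772 recomputed fold changes of single messages, 730 kept their direction and side of the threshold, 25 turned, 8 passed only in the alternative and 9 were lost. Most of those that kept their side were not called to begin with. Only 2 changes were called in the main fit, mt-Nd5 and mt-Nd2 by age in Pt-CrAT, and all 9 losses were theirs. For the mean over the settings, only mt-Cytb was counted. With DESeq2 the counts were 2 messages at 12 months, 15 genes at 24 months, 249 in the mean, 2439 genes and 2 messages in the variation, 755 in fl/fl by age, and 23 in the difference of the age changes. With only the compared groups they were 1 gene at 12 months, 4 genes at 15 months, and 1 message by age in Pt-CrAT. Without CrAT24Mchow123 and CrAT24Mchow136 they were 1 gene in the mean, 30 in the variation, and 417 genes and 0 messages by age in Pt-CrAT, and mt-Nd6 was at 0.078 at 24 months. With library totals, chosen after seeing the data, they were 1 message at 12 months, 8 genes in the mean, 1379 in the variation, 338 in fl/fl by age, and 2710 genes and 1 message by age in Pt-CrAT; at 12 months mt-Co1, mt-Nd5 and mt-Nd6 were at -0.088, -0.10 and -0.057, at 24 months mt-Cytb at 0.11, and by age in Pt-CrAT mt-Nd1, mt-Nd4 and mt-Cytb at 0.011, 0.039 and 0.18. Leaving out each library in turn gave, at 12 months, 53 to 3513 genes and 0 to 2 messages, with mt-Nd4 at -0.10 to 0.48, mt-Nd5 at -0.16 to 0.24 and mt-Nd6 at -0.049 to 0.36. It gave 1 to 262 genes in the mean, 2 to 2195 genes and 0 to 2 messages in the variation, -0.42 to 0.45 for mt-Nd6 at 15 months, and 3 to 756 genes in fl/fl by age, with mt-Nd5 at -0.037 to 0.063. In the difference of the age changes mt-Nd6 ran from -0.67 to 0.21. At 24 months it gave 0 to 2 genes, mt-Nd3 at -0.066 to 0.51 and mt-Cytb at -0.16 to 0.15, and by age in Pt-CrAT 393 to 1777 genes, 0 to 2 messages and mt-Cytb at -0.17 to 0.0235. The cause of these shifts was not tested. No paired analysis was possible because the groups share no replicate number. With the 20 most abundant other genes left out of the total, the share of the 8 messages was 5.18% to 6.46% as group means. Depth limits mt-Nd3 (6 to 93 counts), mt-Nd6 (49 to 371 counts) and tRNAs such as mt-Tf (0 to 46 counts) and mt-Tr (1 to 27 counts).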
